A study of Mus musculus with 32 samples.

Results

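The genes described here are 8 transcription factors of the interneuron lineage, namely Dlx1, Dlx2, Dlx5, Dlx6, Lhx6, Sox6, Satb1 and Sp9. They were chosen by name and not by a measured value, and they are 8 of the 44081 genes in the table of 3′UTR reads. Each of the 16 neurons was a single cell from embryonic day 18 C57BL/6 mouse hippocampus, kept in culture for 15 days, and its soma and its dendrites were collected into separate tubes and sequenced, which gave 32 libraries. No genetic change or drug treatment is given for any neuron, so the only contrast is dendrites against soma within a neuron. RNA was amplified by the aRNA method (linear amplification by in vitro transcription) in 3 rounds for neurons 1 to 4 and in 2 rounds for the other 12. ERCC spike-in RNA was diluted 4000000 times and, per the labels, was added for neurons 3 to 16. The labels name the cells only as hippocampal neurons, and a sample of the culture made by hand-picking is not a census of it.

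Inhibitory interneurons of the hippocampus and cortex arise in the ganglionic eminences of the embryonic forebrain and migrate to their final site. The homeodomain proteins of the Dlx family switch on the inhibitory program, including the enzymes that make the transmitter GABA, and Dlx1/Dlx2 and Dlx5/Dlx6 lie as neighbouring pairs in the genome. Lhx6 marks cells of the medial ganglionic eminence, Sox6 and Satb1 act after it in the maturation of these cells, and Sp9 is a zinc finger factor of the same progenitor zones. All are nuclear proteins that bind DNA, so an mRNA in dendrites is not at the place where the protein is known to act.

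On GRCm38, the build that the submitters call mm10, GENCODE places Dlx1 (ENSMUSG00000041911) at chr2:71528113-71533981 on the plus strand and Dlx2 (ENSMUSG00000023391) at chr2:71543408-71546754 on the minus strand. Dlx6 (ENSMUSG00000029754) lies at chr6:6863334-6868568 on the plus strand, and Dlx5 (ENSMUSG00000029755) at chr6:6877805-6882085 on the minus strand. Sp9 (ENSMUSG00000068859) lies at chr2:73271925-73284706 on the plus strand, Lhx6 (ENSMUSG00000026890) at chr2:36081953-36105408 on the minus strand, Sox6 (ENSMUSG00000051910) at chr7:115470872-116038796 on the minus strand and Satb1 (ENSMUSG00000023927) at chr17:51736187-51833290 on the minus strand. Dlx6 lies inside the antisense gene Dlx6os1 (chr6:6820189-6871592, minus strand), and Dlx1 inside the antisense gene Dlx1as (chr2:71516454-71537891, minus strand), which the table lists under its synonym Dlx1os. The 3′UTR reads were counted by strand, so sense and antisense reads were kept apart.

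Short promoter stretches are shown because homeodomain proteins bind an AT-rich core. RefSeq promoters (250 bases before to 50 after a start, 300 in all, GRCm38.p6) matched 6 of the 8 genes, with 17 promoters in all and none for Dlx5 or Dlx6. The core TAATTG, searched on both strands (CAATTA is the same core on the other strand), was in 2 of these 17 promoters and in 8.00% of all 32851 promoters. The palindrome TAATTA was in 0 of the 17 and in 5.29% of all promoters. Both matches follow, 5′ to 3′ on the strand of the gene, with the core in capitals, for Lhx6 at chr2:36104272-36104301 (minus strand, core 229 bases before the start) and Sp9 at chr2:73271712-73271741 (plus strand, core 202 bases before the start). A match describes letters in this window and not binding.
Lhx6: cacgacaatttcTAATTGcaggtagtttgt
Sp9: tgtgtaaattttTAATTGcactgtaatttc

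The dendrite libraries were shallower, at 646521 to 6954420 counted 3′UTR reads (median 1605714), than the soma libraries, at 925525 to 21169974 (median 6165691). The mitochondrial share of reads was 15.3% ± 9.80 (SD, n = 16) in dendrites and 2.02% ± 2.12 in somas. Because the sequenced reads have no molecular identifiers, the counting limits given here cover counting error only. A count of 0 allows up to 3 reads, which is a rate of 0.142 to 3.24 CPM (counts scaled to the library total) in a soma and 0.431 to 4.64 in dendrites. Fewer molecules in a compartment and less complete recovery of them cannot be told apart in these libraries.

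All 16 neurons carried RNA of the interneuron program. Every soma had at least 10 reads of Dlx1, Gad1 and Gad2, the Gad genes encoding the enzymes that make GABA, and 15 of the 16 somas had at least 10 reads of each of Dlx1, Lhx6, Gad1, Gad2 and Slc32a1, which encodes the transporter that loads GABA into vesicles. The number of the 8 factors with at least 10 reads ran from 3 to 8 per soma (median 7) and from 1 to 7 per dendrite library (median 2.5). The 8 genes together took 0.0557% of the reads of the median soma and 0.0334% of those of the median dendrite library. The somas of neurons 4, 7 and 8 held all 8 factors at 10 or more reads. The soma of neuron 14 held the fewest, with 224 reads of Dlx1, 224 of Satb1 and 12 of Sp9 as the values of 10 or more.

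**Figure D1:**
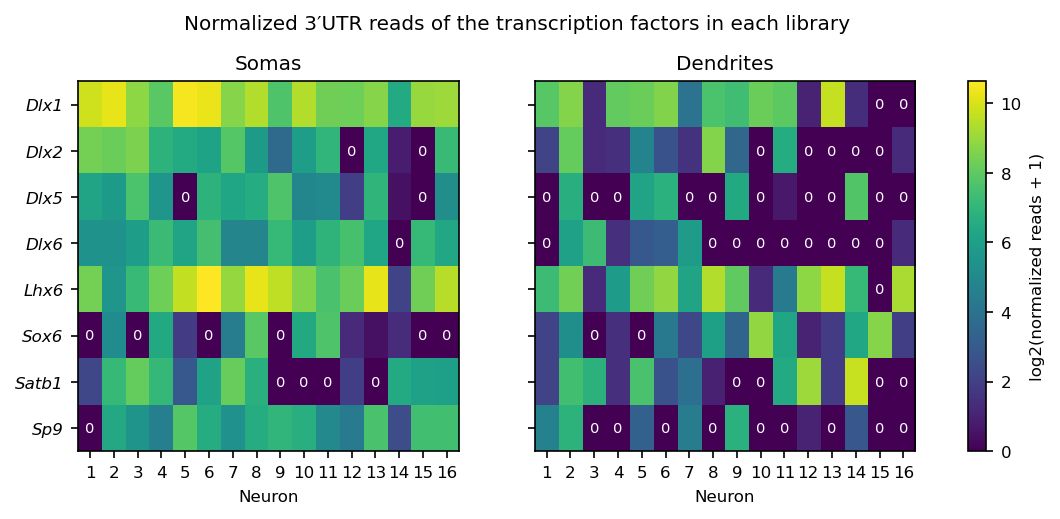
Normalized 3′UTR reads (log2 of value + 1, colour) of the 8 transcription factors (rows) in the somas (left) and dendrites (right) of neurons 1 to 16 (columns), with 0 written where a library had no read. Reads were absent in 16 of 128 gene and soma combinations and in 42 of 128 gene and dendrite combinations.

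Levels below are normalized reads, that is 3′UTR reads divided by the size factor of the library. They serve to compare one gene between libraries. Dlx1 was the only factor at 10 reads or more in every soma. It ranged from 88.5 to 1432 normalized reads in somas (median 478, with 211 to 3348 raw reads), and 22.3% of the 10880 genes tested reached 10 raw reads in every soma. In dendrites Dlx1 ranged from 0 to 840 normalized reads (median 212), with 2 libraries at 0, 3 at exactly 1 read and 10 at 10 or more. The low dendrite libraries and the others formed separate clusters, since the values below 10 reads were 0, 0, 1, 1, 1 and 8 and the next was 66. Dlx1 was lower in dendrites in 14 of 16 neurons, and neurons 4 and 13 had the higher level in dendrites.

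Dlx2, its neighbour and partner, ranged from 0 to 365 normalized reads in somas (median 86.0) and from 0 to 405 in dendrites (median 1.81). It reached 10 reads in 13 somas and 5 dendrite libraries, and the latter always belonged to a neuron with 10 reads in its soma. The highest dendrite value, 429 raw reads in neuron 8, exceeded the soma of that neuron, with 98 reads. Neuron 8 was the only neuron with more Dlx2 in dendrites by normalized reads, and 13 neurons had less.

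Dlx5 and Dlx6, the second pair, were sparser in dendrites. Dlx5 ranged from 0 to 205 normalized reads in somas (median 49.7) and from 0 to 213 in dendrites, where 10 of 16 libraries had no read and the median was 0. It reached 10 reads in 12 somas and 5 dendrite libraries, and in neurons 5 and 14 it reached 10 reads in dendrites but not in soma. Dlx6 ranged from 0 to 183 normalized reads in somas (median 74.7) and from 0 to 154 in dendrites (median 0). It reached 10 reads in every soma but that of neuron 14, and in the dendrites of neurons 2, 3 and 7 alone, with 14, 112 and 29 raw reads.

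Lhx6 had reads in all 16 somas, from 9 to 6374 raw reads. Its normalized level ranged from 3.56 to 1585 in somas (median 364) and from 0 to 837 in dendrites (median 206). It was the factor most often found in dendrites, with 10 reads in 13 dendrite libraries and in 15 somas, and the groups overlapped over most of their range. Neuron 14 had 9 reads in soma and 87 in dendrites, and neurons 2 and 12 also had the higher normalized level in dendrites.

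Sp9 showed the widest gap in presence together with Dlx6. It ranged from 0 to 227 normalized reads in somas (median 89.1) and from 0 to 116 in dendrites (median 0). It reached 10 reads in 15 somas and in the dendrites of neurons 2, 7 and 9, with 24, 11 and 373 raw reads. In neurons 1, 2 and 14 the level was higher in dendrites, from 7, 24 and 4 dendrite reads.

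Sox6 and Satb1, which act later in the lineage, were patchy in both compartments. Sox6 ranged from 0 to 239 normalized reads in somas (median 1.53) and from 0 to 478 in dendrites (median 6.85), with 10 reads in 5 somas and 6 dendrite libraries. The level was higher in dendrites in 9 neurons and lower in 6. Among the 9, neurons 1, 13 and 16 had only 1, 1 and 2 dendrite reads, and among the 6, neurons 5 and 12 had only 2 and 1 soma reads. In neuron 14 there were 50 dendrite reads against 4 in soma, but 104 against 318 on exons. The soma of neuron 15 had no read beside 245 in its dendrites, although on exons both compartments of that neuron had 0 reads of Sox6. Satb1 ranged from 0 to 282 normalized reads in somas (median 65.3) and from 0 to 849 in dendrites (median 4.42), with 10 reads in 9 somas and 6 dendrite libraries. Its level was higher in dendrites in 6 neurons and lower in 8, with 530 dendrite reads against 2 in soma in neuron 12, and 536 against 4 on exons. In neuron 11 there were 276 dendrite reads against 0 in soma on 3′UTRs, but 276 against 106 on exons. Of the 5 somas with 10 reads of Sox6, 3 also had 10 reads of Satb1.

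**Figure D2:**
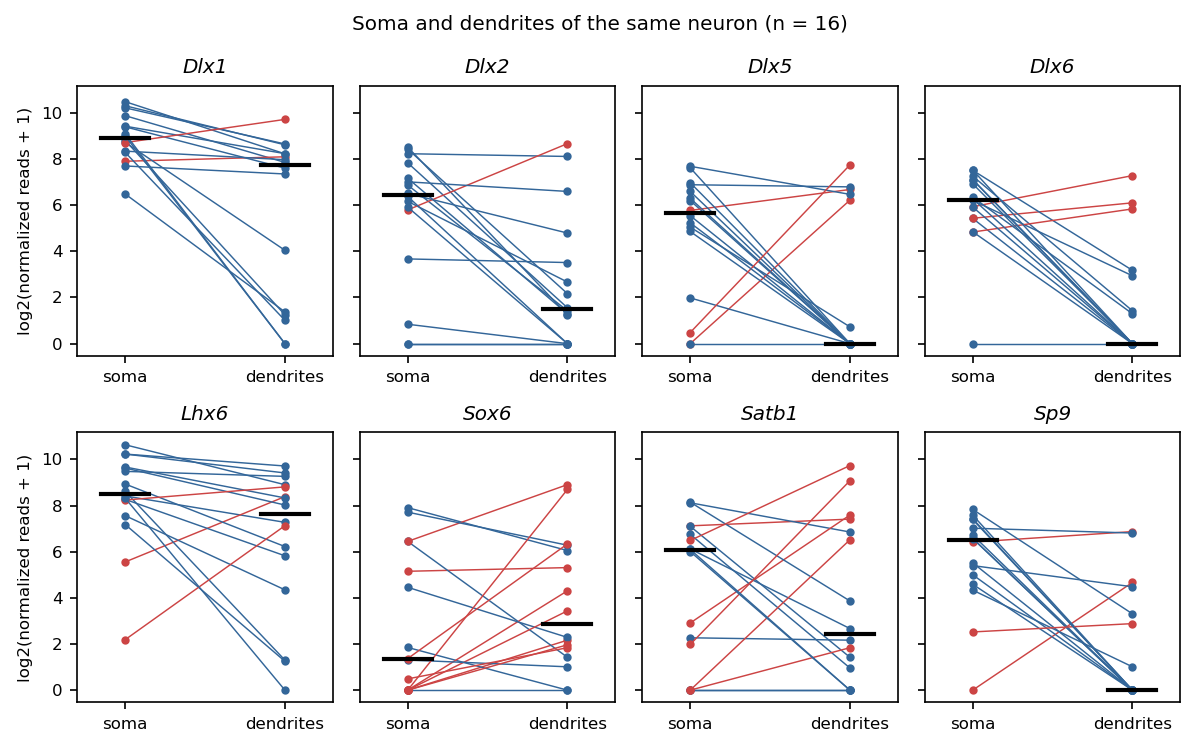
Normalized 3′UTR reads (log2 of value + 1) of each factor in the soma and the dendrites of the same neuron, with 1 line per neuron (n = 16), red where dendrites were higher and blue otherwise, and black bars at the medians. Lines fall to 0 in many neurons for Dlx5, Dlx6 and Sp9, whereas 9 of 16 rise for Sox6, those of neurons 1, 13 and 16 from 1 or 2 dendrite reads.

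Counted together, 112 of 128 gene and soma combinations had reads, 100 of them at least 10. In dendrites 86 of 128 had reads, of which 21 were a single read and 51 were at least 10. At the expected reads of the shallowest library, with 646521 reads, 102 soma and 63 dendrite combinations remained at 1 read or more, both on equal totals that include the mitochondrial reads. By gene, 4 of the 8 factors (Dlx1, Dlx6, Lhx6 and Sp9) were at 10 reads or more in at least 14 somas, beside 44.9% of the genes tested, and 2 of the 8 (Dlx1 and Lhx6) in at least 8 dendrite libraries, beside 42.4%. At least 1 read in at least 14 dendrite libraries was seen for 3 of the 8 (Dlx1, Lhx6 and Sox6), beside 26.5%. Within somas, Dlx1, Dlx2, Dlx5 and Dlx6 were all at 10 reads or more in 12 neurons, and in dendrites in 1.

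Compared per length, on exon reads scaled for exon length and for the exon reads of the library (RPKM), the soma means fell in the order Lhx6 (44.4 ± 38.4, SD, n = 16), Dlx1 (42.9 ± 27.8), Dlx2 (16.2 ± 15.1), Dlx5 (11.9 ± 12.1), Sp9 (6.74 ± 5.35), Satb1 (1.92 ± 2.31) and Sox6 (0.636 ± 1.04). Dlx6, at 0.575 ± 1.03, is not placed in this order, because its exons held 2.91% as many reads as its 3′UTRs. Each pair of neighbours in this order differed by less than the larger of their SDs. Reads lie near 3′ ends in these libraries, so a value per length understates genes with long exons, such as Satb1 and Sox6, and the exon share of Sox6 was also low (54.1%). For scale, the same quantity was 915 ± 481 for Gad1 and 248 ± 156 for Slc32a1 in somas. Among genes listed for glutamatergic neurons it was 4.09 ± 9.80 for Slc17a7, which encodes a vesicular transporter of glutamate, 11.4 ± 24.7 for Neurod1, 40.0 ± 32.4 for Bcl11b and 78.9 ± 247 for Neurod6, where 1 soma reached 998 and the median was 7.41.

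The question put to the compartments was which RNAs differ between the dendrites and the soma of the same cell. All 8 factors passed the filter of at least 1 read in at least 16 libraries. With the quasi-likelihood test of edgeR, neuron as a block and Benjamini-Hochberg adjustment over 10880 genes, 2 of the 8 were called higher in soma at an adjusted p of at most 0.05, beside 5.71% of all genes, and 0 of the 8 higher in dendrites, beside 0.827% of all genes. At an unadjusted p under 0.05, 5 of the 8 were lower in dendrites and 0 higher, beside 26.7% of all genes lower. DESeq2 called 6 of the 8 higher in soma (all but Sox6 and Satb1) and 0 in dendrites, beside 46.2% and 4.26% of all genes. The median gene itself had a log2 fold change (dendrites over soma) of -1.49, and the median of the 8 factors was -3.26, with 5 of the 8 below the median gene.

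Dlx6 had the largest difference of the 8, at -6.02 ± 1.60 on the log2 scale (SE, edgeR adjusted p = 0.0216), lower in dendrites in 12 of 16 neurons. Only 1.04% of the tested genes had a lower value. Sp9 followed with a value of -5.39 ± 1.71 (SE, adjusted p = 0.0457 from edgeR), lower in dendrites in 13 neurons. The call of Dlx6 was lost without neuron 13, 15 or 16 (adjusted p from edgeR 0.0504, 0.0538 and 0.0537). That of Sp9 was lost without any 1 of 10 neurons (3, 4, 6, 8, 10, 11, 12, 13, 15 or 16, highest adjusted p 0.119). The log2 fold changes in these fits were -5.46, -5.40 and -5.86 for Dlx6 and -4.72 to -5.39 for Sp9. The dendrite libraries of neurons 15 and 16 had the highest mitochondrial shares, 35.8% and 32.4%, and the fewest genes at 10 reads or more, 1570 and 2485, and the part of this in the calls was not tested.

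Dlx5, Dlx2 and Dlx1 missed the threshold, with log2 fold changes of -4.89 ± 1.84 (SE, adjusted p = 0.0816), -3.95 ± 1.47 (adjusted p = 0.0790) and -2.57 ± 0.98 (adjusted p = 0.0841) from edgeR. Lhx6 had -1.36 ± 0.89 (SE, adjusted p = 0.284), close to the median gene, with 52.7% of genes lower. Satb1 had -0.63 ± 1.76 (SE, adjusted p = 0.816) and Sox6 1.86 ± 1.49 (SE, adjusted p = 0.376), the only factor with a positive value. When libraries were scaled so that the median gene did not change, a shift of 1.49, no factor was called, Dlx6 and Sp9 kept negative values of -4.65 and -3.99, and Lhx6 and Satb1 turned positive, at 0.18 and 0.76.

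**Figure D3:**
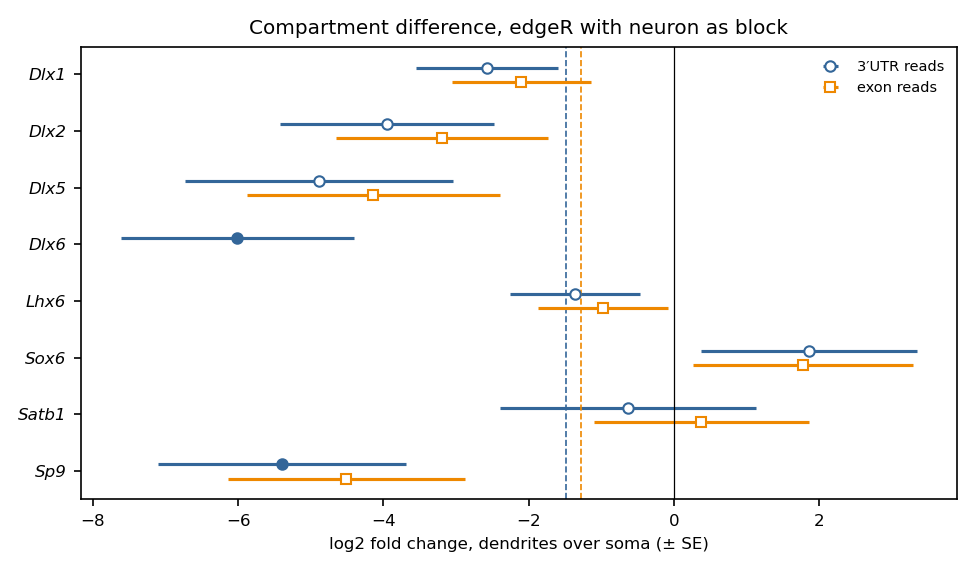
Log2 fold change of dendrites over soma (points, ± SE bars) for each factor from 3′UTR reads (blue) and exon reads (orange), with filled points for an adjusted p of at most 0.05 and dashed lines at the median of all genes tested. Dlx6 and Sp9 are filled on 3′UTR reads, no point is filled on exon reads, and Dlx6 did not pass the filter there.

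The exon counts hold only a small part of the Dlx6 reads behind this difference. Dlx6 had 4294 reads on its 3′UTRs in the 16 somas and 125 on its exons, 2.91% as many, whereas the share was 54.1% for Sox6 and ran from 99.2% (Lhx6) to 110% (Satb1) for the other 6 factors. In the table of separate 3′ ends, 97.6% of the soma reads of Dlx6 were on the first listed end and 2.40% on the second. That table gives no coordinates, so where the first end lies, and whether its reads are Dlx6 mRNA, cannot be read from it. On exons Dlx6 reached 10 reads in 4 somas and 0 dendrite libraries, so it fell below the filter and was not tested. On exon reads 0 of the 7 factors tested were called in either direction, beside 2.62% of all genes called higher in soma and 1% in dendrites. At an unadjusted p under 0.05, 4 of the 7 were lower in dendrites, beside 20.4% of all genes. Sp9 had -4.51 ± 1.64 on exons (log2, SE, adjusted p = 0.0813 from edgeR).

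Most factors used 1 main 3′ end in somas. The leading end held 97.5% of the end reads of Dlx1, 100.0% for Dlx2, 98.3% for Lhx6 and 99.9% for Sp9, and Dlx5 has a single listed end. Sox6 and Satb1 divided their reads. For Sox6 the first end held 67.9% of the soma reads and 32.5% of the dendrite reads, and the second 31.9% and 67.0%. For Satb1 the first end held 44.5% of the soma reads and 7.55% of the dendrite reads, and the second 35.7% and 58.3%. These shares pool all reads, and single libraries carried much of them, since the dendrites of neuron 12 held 401 of the 703 dendrite reads on the second end of Satb1 and the dendrites of neuron 15 held 245 of the 305 on the first end of Sox6. No test was made of the shares.

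The compartment differences were also set against the rounds of amplification. In the 12 neurons of 2 rounds, Dlx6 had a log2 fold change of -7.24 (adjusted p = 0.0305 from edgeR) and Sp9 of -6.30 (adjusted p = 0.0532), and in the 4 neurons of 3 rounds -1.54 (adjusted p = 0.946) and -1.43 (adjusted p = 0.961). Tested as an interaction in edgeR, the difference between the rounds was called for 0 of the 8 factors and for 0 of 10880 genes (0%), with 288 genes and 0 factors at an unadjusted p under 0.05. DESeq2 was not run on the interaction. Scaling by the spike-ins in neurons 3 to 16 called 6 of the 8 higher in soma, beside 6681 of 10880 genes. The median of all genes was then -3.96 (log2), and Sox6 turned negative, at -0.25.

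The other genes of the lineage gave a background for these factors. The 3 GABA genes Gad1, Gad2 and Slc32a1 were at 10 reads or more in every soma, and 1 of the 3 was called higher in soma by edgeR, Gad1 at -1.58 ± 0.38 on the log2 scale (SE, adjusted p = 0.0148). Gad2 had -0.74 (adjusted p = 0.150) and Slc32a1 -0.63 (adjusted p = 0.528). Unlike the factors, these genes were at 10 reads or more in every dendrite library but 1, where Slc32a1 had no read. They also had more reads in somas, with medians of 44980 (Gad1), 16502 (Gad2) and 5728 (Slc32a1). The highest median of a factor was 1154 (Dlx1). A gene with more reads reaches 10 more readily, so this contrast does not separate dendritic presence from level.

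Among 14 other regulators of the lineage, 6 passed the filter and 0 were called in either direction by edgeR, also 0 at an unadjusted p under 0.05. DESeq2 called 1 of the 6, Nr2f2, higher in dendrites, at 2.18 ± 0.87 on the log2 scale (SE, DESeq2 adjusted p = 0.0272). Maf and Zeb2 were at 10 reads or more in all 16 somas. The antisense RNAs Dlx6os1 and Dlx1os were too, and in dendrites they reached 10 reads in 13 and 15 libraries, against 3 and 10 for Dlx6 and Dlx1 on the opposite strand. On the log2 scale they stood at -1.14 ± 0.85 (SE, edgeR adjusted p = 0.341) and -0.33 ± 0.71 (adjusted p = 0.758). Nkx2-1, which acts upstream of Lhx6 in progenitors, reached 10 reads in 5 somas. Each of these had 10 reads of Lhx6, but so did 15 of all 16 somas, so the overlap does not tie the pair together. Lhx8, Sp8, Npas1 and Dlx3 reached 10 reads in 0 somas.

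Of 16 interneuron subtype genes, 11 passed the filter, 1 was called higher in soma and 1 in dendrites by edgeR. Nxph1, a secreted ligand of neurexins, stood at -2.63 ± 0.75 on the log2 scale (SE, adjusted p = 0.0295), and Pvalb, a calcium-binding protein, had 2.39 ± 0.75 (adjusted p = 0.0439). Npy, Reln, Erbb4 and Nxph1 were at 10 reads or more in all 16 somas. The neuropeptide gene Sst, a common marker of cells that carry Lhx6, had at most 9 reads in any soma and at most 1 in any dendrite library. Vip reached 10 reads in 2 somas, Cck in 11, Lamp5 in 9 and Pvalb in 12.

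**Figure D4:**
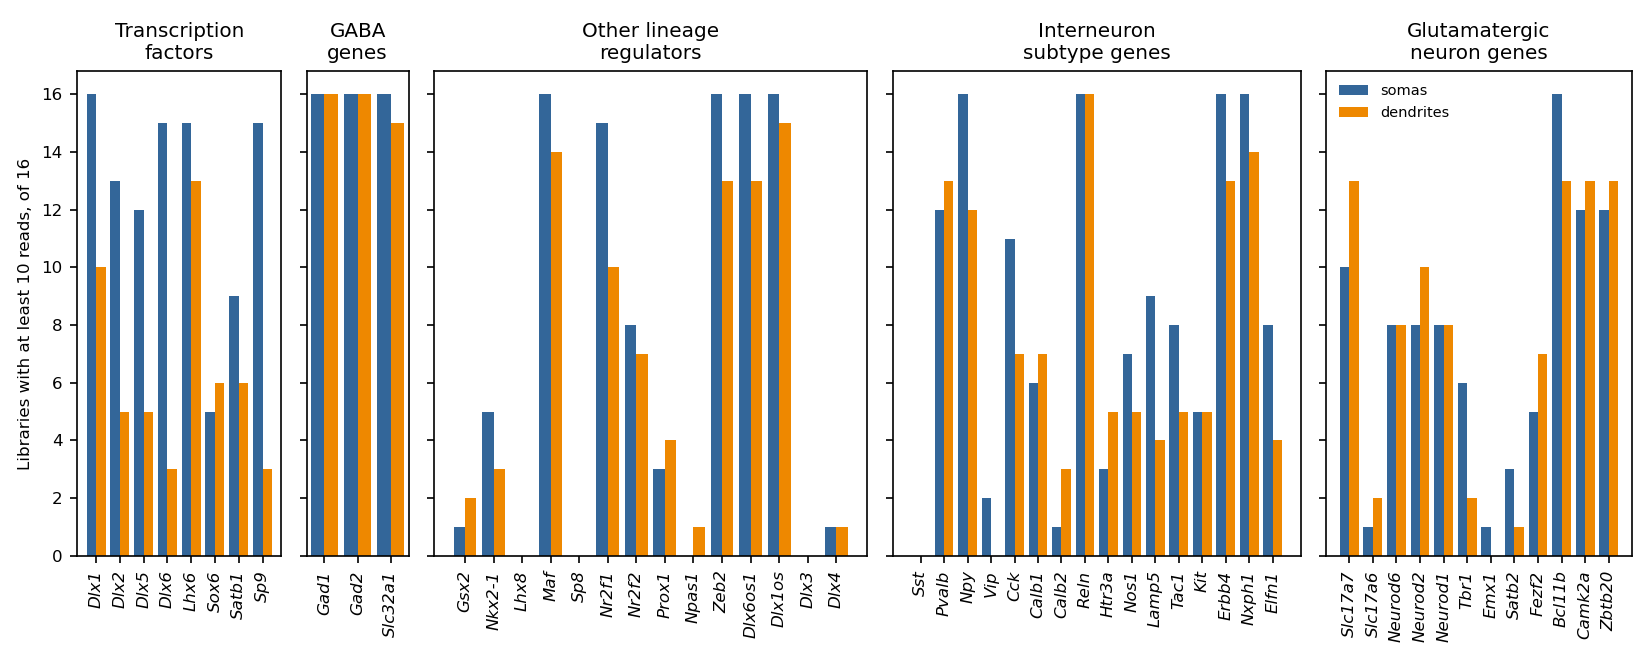
Number of somas (blue) and dendrite libraries (orange) out of 16 with at least 10 3′UTR reads (bar height) for the 8 transcription factors, the GABA genes, the other lineage regulators, the interneuron subtype genes and the glutamatergic neuron genes. GABA genes reach 15 or 16 in both compartments, while Dlx6 and Sp9 stand at 15 somas and 3 dendrite libraries.

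Markers of other cell types were present in the same libraries. Of 12 genes listed for glutamatergic neurons, 7 reached 10 reads in at least 8 somas and 7 in at least 8 dendrite libraries. One of them, Bcl11b, which is also expressed in interneurons, did so in all 16 somas, and Emx1 did so in 1 soma and 0 dendrite libraries. Dlx1 and Slc17a7 were both at 10 reads or more in 10 somas and in 9 dendrite libraries. The summed normalized level of the list was 132 to 13377 in somas (median 1366) and 44.2 to 8327 in dendrites (median 2080), and that of the GABA genes 4375 to 52615 (median 24990) and 4435 to 19967 (median 8666). Of the 8 glutamatergic genes that passed the filter, 0 were called by edgeR, and their median log2 fold change was 1.88. Summed astrocyte markers were 0 to 1325 in somas (median 155) and 0 to 1492 in dendrites (median 449), where 2 of 6 genes reached 10 reads in at least 8 libraries of each compartment and 0 reached it in all 16. Summed microglia markers were 0 to 42.2 in somas (median 0.645) and 0 to 1224 in dendrites (median 18.0), where 3 of 6 genes were below 10 reads in every soma and 2 of 6 in every dendrite library. The part of such RNA in the compartment differences was not tested.

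Over the 16 somas, the genes whose normalized reads ran most like a factor were named from 11857 genes with at least 10 reads in at least 4 somas, as a description without a test. The highest Pearson correlations on the log2 scale were 0.93 for Msl2 with Dlx2, 0.94 for Acad11 with Dlx5, 0.89 for Nmnat2 with Dlx6, 0.89 for Gatc with Lhx6, 0.86 for Nr3c2 with Sp9, 0.83 for Pde9a with Sox6, 0.80 for Tac1 with Satb1 and 0.79 for Sub1 with Dlx1. For the mean of the 8 factors, the leading genes were Ccdc55 (0.86), Ssbp1 (0.85) and Iqsec2 (0.83), followed by Fam102b, Tomm40l, Ndufaf3, Iah1, Gtf2h5, Spcs1 and Pkig, down to 0.81. None of the listed lineage genes was among these. Dlx6os1 stood at rank 1098 with 0.47, Gad1 at rank 4025 with 0.23 and Slc32a1 at rank 9207 with -0.13. The somas differed in rounds of amplification and in depth, and the part of this in the correlations was not tested. On exon counts only 2 of these 10 genes were again among the first 10.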

How the data were processed

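Single mouse hippocampal neurons were compared between soma and dendrites. The authors trimmed the reads, aligned them to mm10 with STAR (2.4.0 in the submitters' processing notes), and counted uniquely mapped reads with VERSE, by strand on 3′UTRs. All deposited values are whole-number read counts without normalization, on the union of the 3′UTRs of 44081 genes, on separate 3′ ends (last 500 bases) and on exons. The annotation of the exon counts is not given in the sources used here. Columns were matched to samples by title, and 0 columns of per-sample values were left unused.

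From these counts, edgeR 4.0.16 (R 4.3.3; TMM, robust quasi-likelihood test, neuron as block) tested the 10880 genes that had 1 or more reads in 16 or more samples, and DESeq2 1.42.0 was the alternative and gave the size factors. All other values came from Python 3.11.15, NumPy 2.4.6 and pandas 2.3.3. The pairing comes from the cells, and the correlation of same-neuron deviations over genes had a median of 0.0641 (over 0.1 in 7 of 16 pairs), against -0.00491 for different neurons. The sources do not tie neurons to cultures or animals, so p-values measure the spread between these cells. The edgeR test was tested on simulated data.

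The 8 genes and all lists were chosen with earlier results of these data known. A few genes of the lists are not reported here and were left out of their counts and sums. Named genes were the 8 members, listed genes with reads, and the genes most alike (3 per member and 10 for the mean, pseudocount 1), of which the first per member is named. Alternatives covered the tool, scaling, filters, exon counts, the block, the rounds of amplification, equal depth and leaving out each neuron. The depth, 646521 to 21169974 reads, sets the limit of a count of 0, and the spread between neurons sets the precision.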

Additional observations from a re-analysis of the deposited data

How the results depend on the processing

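The number of factors called higher in soma, 2 with edgeR, was 6 with DESeq2, 0 with no filter beyond 1 read, 1 with at least 10 reads in at least 8 samples, 0 on exon counts, 0 with scaling to the median gene, 6 with spike-in scaling in neurons 3 to 16, 1 in the 2-round neurons alone and 0 in the 3-round neurons alone. With RLE size factors it remained 2. Without the block for neuron it was 0, while over all genes 77 were then called higher in soma and 157 in dendrites, against 621 and 90 with the block. Leaving out each neuron gave 0 to 3 factors. The number was 0 without neuron 13, 15 or 16, and 1 without neuron 3, 4, 6, 8, 10, 11 or 12. It was 3 without neuron 5, when Dlx5 was added. The total of soma calls over all genes moved too, to 244, 236 and 130 without neuron 13, 15 or 16. This total was 253 to 534 without neuron 3, 4, 6, 8, 10, 11 or 12, and 990 without neuron 5. The number of factors called higher in dendrites was 0 under every alternative. The number of factors whose compartment effect was called to differ between rounds was also 0 without the filter. Over all genes, the median-gene scaling called 89 higher in soma and 590 in dendrites, DESeq2 5029 and 463, no filter 143 and 15, exon counts 257 and 98, spike-in scaling 6681 and 16, the RLE size factors 1008 and 81, the 2-round neurons 354 and 43 and the 3-round neurons 1 and 4.

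Satb1 changed sign on exon counts (log2 fold change 0.38), without the block (0.92), with median-gene scaling (0.76) and without neuron 15 or 16 (0.15 and 0.14, in a range of -1.24 to 0.15 over the neurons left out). Lhx6 changed sign with median-gene scaling (0.18), and Sox6 with spike-in scaling (-0.25) and in the 3-round neurons (-0.40). Dlx1, Dlx2, Dlx5, Dlx6 and Sp9 kept a negative value under every alternative that gave one, but its size varied. Without the block the values were, in this order, -1.39, -0.80, -0.89, -1.86 and -2.18. With spike-in scaling they were -5.19, -5.94, -7.14, -9.03 and -8.69. Dendrite combinations with reads went from 86 to 51 at 10 reads. Of the 10 genes most like the mean of the factors, 7 were shared at a pseudocount of 10 and 2 on exon counts. The cause of these changes was not tested. Of the 86 dendrite combinations with reads, 21 were a single read. The shallowest dendrite library (neuron 2, 646521 reads) had reads of all 8 factors and that of neuron 15 (2235244 reads) of 1.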
